A study of Mus musculus with 234 samples.

Results

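Immediate-early genes are switched on within minutes of a stimulus, from transcription factors already present in the cell, and their mRNAs are short-lived. They encode AP-1 subunits (Fos, Jun and Junb, which pair to bind DNA), the zinc-finger factor Egr1, the stress-induced repressor Atf3 and the antiproliferative cofactor Btg2. In the heart they respond to stretch, adrenergic drive and stress, and enzymatic dissociation of a tissue is known to induce them too. Here single ventricular cardiomyocytes (CMs) with much and with little mRNA of these genes were compared. The cells were chosen by measured values: the counts of Fos, Jun, Junb, Egr1, Atf3 and Btg2 were summed and scaled to the total count of the cell (CPM), and the cells of each sample title were ranked on this score. Of all deposited cells, 219 had 1000 or more genes detected and were ranked, and 15 did not. Each title's ranking was divided by 3, which gave 70 high cells from the top, 70 low cells from the bottom and 79 middle cells.

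The cells came from 5 mice, named by their number after an M. Mice M25 and M116 carried the transgene homozygously (strain label PGKcre:BAG3P209L_homo), mouse M72 carried it heterozygously (PGKcre:BAG3P209L_het), and mice M26 and M73 were controls labelled C57BL/6. The transgene encodes a human BAG3 mutant fused to eGFP, inserted at Rosa26 under the CAG promoter behind a floxed stop and switched on by PGK-Cre, whose recombinase is active in all cells. By the study's methods, controls were siblings of homozygous mice that could be wild-type or carry PGK-Cre or the unrecombined transgene alone, the lines were on a mixed background, and homozygous mice could have the stop removed from only part of their transgene alleles. Control and homozygous mice were 2 weeks old, and the age of mouse M72 is not given in the sources used here. CMs were freed by perfusing the heart with enzyme, picked by hand and sequenced by SMART-seq2, and transgenic CMs were labelled bright or dim by their eGFP fluorescence, which gives 8 title classes. The study's methods describe no difference in dissociation protocol between hearts. Whether the hearts were dissociated together or on different days is not given in the sources used here. Differences between mice in these genes can therefore include the preparation, and no cells left undissociated were analysed here.

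Standing apart were 2 wells, both of the bright class of mouse M25. The 7 CM markers Myh6, Tnnt2, Tnni3, Actn2, Actc1, Ttn and Ryr2 summed to a median of 73551 CPM over the ranked cells, but to 204 CPM in the well with the highest score of all (6729 CPM, 849593 counts), in which 8 fibroblast markers summed to 50106 CPM. That well was one of the high cells, and its Junb and Egr1 levels were 2950 and 3067 CPM, while Atf3 was at 0 and Btg2 at 1.18 CPM. The other well, one of the low cells, held 1886 CPM of CM markers and 1117 genes. Every other ranked cell held more than 20000 CPM of CM markers, so the label CM was borne out for all but these 2 wells, and results are given with and without them. The ranked cells held 4259 to 1392253 counts, with a median of 730278, and the 10 sums of cells per mouse and group that were compared held 883735 to 25682416 counts. Mouse M73 gave only 2 cells to each group.

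The promoters of Fos, Atf3 and Btg2 are shown because they hold the letters TGACGT, the core of the cyclic AMP response element that CREB and ATF proteins recognise. The 250 bases before the RefSeq transcription start (build GRCm38.p6) are printed 5′ to 3′ on the gene's strand, with TGACGT on either strand and the TATA box TATAAA in capitals. The stretches are chr12:85473640-85473889 (plus strand) for Fos, chr1:191183334-191183583 (minus strand) for Atf3 and chr1:134079156-134079405 (minus strand) for Btg2.
Fos: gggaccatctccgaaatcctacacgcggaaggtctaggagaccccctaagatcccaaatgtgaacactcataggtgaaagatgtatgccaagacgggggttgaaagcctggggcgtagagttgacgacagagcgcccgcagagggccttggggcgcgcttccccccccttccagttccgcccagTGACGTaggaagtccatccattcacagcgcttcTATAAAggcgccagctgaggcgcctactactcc
Atf3: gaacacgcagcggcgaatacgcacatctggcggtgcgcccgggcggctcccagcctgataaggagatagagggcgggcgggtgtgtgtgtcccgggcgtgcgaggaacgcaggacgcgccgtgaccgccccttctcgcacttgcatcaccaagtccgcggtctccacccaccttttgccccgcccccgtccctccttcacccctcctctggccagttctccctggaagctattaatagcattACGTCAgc
Btg2: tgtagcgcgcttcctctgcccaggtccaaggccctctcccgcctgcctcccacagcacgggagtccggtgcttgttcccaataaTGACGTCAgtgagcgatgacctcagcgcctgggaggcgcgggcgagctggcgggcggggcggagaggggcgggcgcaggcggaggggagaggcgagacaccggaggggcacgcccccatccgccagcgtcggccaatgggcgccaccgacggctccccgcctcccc

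TGACGT lay 66 to 61 bases before the start in Fos and, as ACGTCA on the printed strand, 8 to 3 bases before it in Atf3. Btg2 held the whole element TGACGTCA, 166 to 159 bases before the start, which contains TGACGT on both strands. Over all 32851 promoter windows of this length, 6.47% held TGACGT, 1.55% held TGACGTCA, 12.4% held TATAAA, 4.46% held the AP-1 motif TGACTCA and 1.47% held a CArG box, each on either strand. The windows of Jun and Junb held none of these, and those of Fos, Atf3 and Btg2 held neither the AP-1 motif nor a CArG box. The window of Egr1, the remaining score gene, was not examined singly. A match or its absence says only which letters stand in this window.

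The score set the groups, so the levels of its 6 genes between them are a description. The median score was 1091 CPM in the high cells, 355 CPM in the middle cells and 195 CPM in the low cells. Classes differed in level: over all ranked cells of a mouse the median score was 119 CPM in M26 and 58.7 CPM in M73, the controls, 286 CPM in M25, 843 CPM in M116 and 189 CPM in M72. A high cell of one class could thus score below a low cell of another. The lowest score in the high cells ranged from 173 CPM in M73 to 1189 CPM in the dim cells of M116. The cells of M116 lay on plates without a control mouse, and the part of plate and preparation in its level was not tested. The groups met without a gap in mouse M116, where the dim cells just inside and just outside the high cells scored 1189 and 1188 CPM, while in M26 they scored 218 and 168 CPM.

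**Figure D1:**
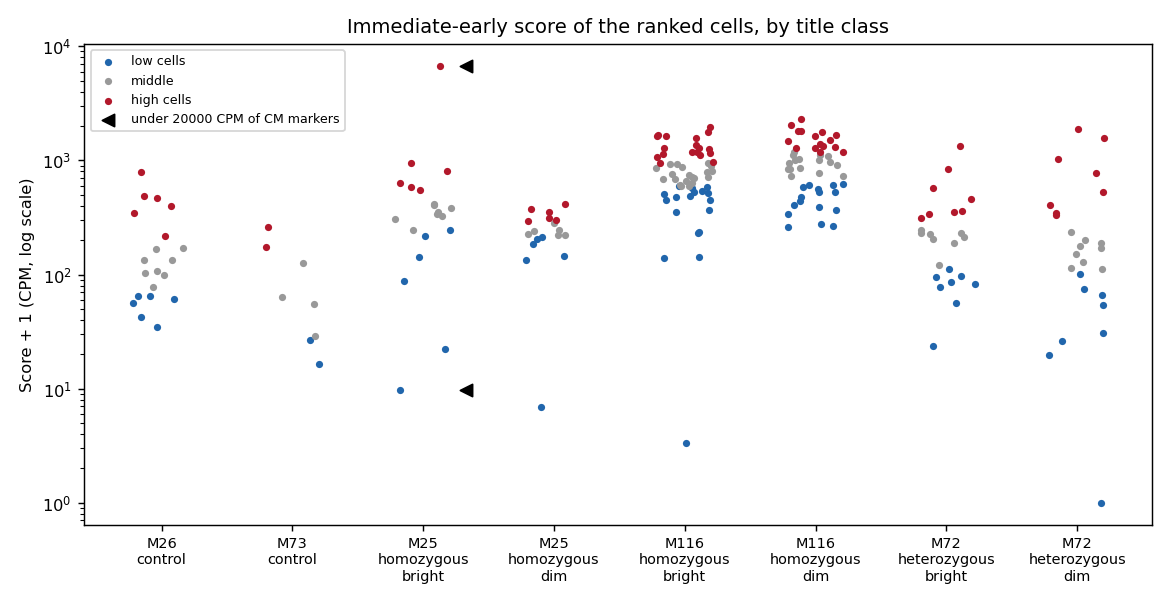
Score of each of the 219 ranked cells (log axis, 1 CPM added) by title class; red points are the high cells, blue the low cells, grey the cells between, and black arrowheads mark the 2 wells with under 20000 CPM of CM markers. Most cells of M116 sit above those of the other classes, and 1 arrowhead marks the highest score of all, 6729 CPM.

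Detection followed the score in the same graded way. Fos had a count in 61 of 70 high cells, 57 of 79 middle cells and 39 of 70 low cells, and Egr1 in 35, 27 and 10. Jun and Btg2 were found in most cells of each group, with counts in 64 and 58 of the 70 low cells. The score was not made of the same genes in each mouse. In M116 Btg2 and Atf3 made up 39.6% and 35.8% of the summed score of the high cells, and Junb 1.61%. In M25 Egr1 and Junb made up 30.0% and 25.1%, with the well low in CM markers among these 12 cells. In the other 11 high cells of M25 Btg2 led with 37.1%, and Egr1 and Junb made up 14.6% and 6.58%. In M73 Btg2 and Jun made up 61.5% and 38.5% and the other 4 genes had no count. Rank correlations between pairs of score genes, taken within the 7 title classes of 18 or more cells (211 cells, which share each cell's total and are therefore not independent measures), had medians from 0.02 for Jun with Junb to 0.42 for Fos with Btg2, the last positive in 7 of 7 classes.

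To measure each score gene apart from its own part in the ranking, the cells were ranked on the other 5 and the remaining gene was tested between the new high and low cells. All 6 genes had a positive log2 fold change, and none passed the threshold. Egr1 had the largest difference. It was at 91.2 CPM in the high and 0 CPM in the low cells of M26, at 0 and 12.6 CPM in M73, at 270 and 18.1 CPM in M25, at 35.1 and 4.32 CPM in M116 and at 78.6 and 24.1 CPM in M72. The high cells were above the low cells in 4 of 5 mice, M73 being the exception, with a log2 fold change of 2.76 ± 1.71 (SE; edgeR quasi-likelihood test, adjusted p = 0.999). Btg2 was higher in the high cells of 5 of 5 mice, at 132 against 48.2 CPM in M26, 74.5 against 0 CPM in M73, 141 against 112 CPM in M25, 512 against 318 CPM in M116 and 200.2 against 108 CPM in M72. Its log2 fold change was 1.29 ± 0.75 (SE; edgeR, adjusted p = 0.996), and the ranges of the high and low cells overlapped over mice.

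Fos and Jun, whose products form the AP-1 dimer, had smaller differences than Egr1. Fos was at 40.0 against 7.79 CPM in M26, 0 against 2.10 CPM in M73, 47.0 against 22.1 CPM in M25, 158 against 77.4 CPM in M116 and 108 against 20.1 CPM in M72, a log2 fold change of 1.21 ± 0.71 (SE; edgeR, adjusted p = 0.997). The value in the low cells of M73 stands for very few reads in 2 cells, and M73 was the only mouse in which Fos was not higher in the high cells. Jun was higher in 5 of 5 mice, at 98.0 against 69.9 CPM in M26, 81.3 against 73.2 CPM in M73, 133 against 56.2 CPM in M25, 66.4 against 32.1 CPM in M116 and 125 against 37.2 CPM in M72, with a log2 fold change of 0.79 ± 0.36 (SE; edgeR, adjusted p = 0.999). Junb, another Jun subunit, and Atf3 were higher in 4 of 5 mice, with log2 fold changes of 1.72 ± 1.17 and 0.78 ± 1.15 (SE; edgeR, adjusted p = 0.999 and 1.00). Without M73 each of the 6 had an unadjusted edgeR p under 0.05, from 0.00152 for Fos to 0.0396 for Atf3, and an adjusted p of 0.787 or more. The log2 fold changes moved with single mice: Btg2 was at 0.68 without M73, Junb at 0.93 without M25, Egr1 at 1.75 without M26, and Atf3 at -0.05 without M72 and 1.60 without M73. Without the 2 wells apart, Junb and Egr1 came to 1.09 and 2.02.

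**Figure D2:**
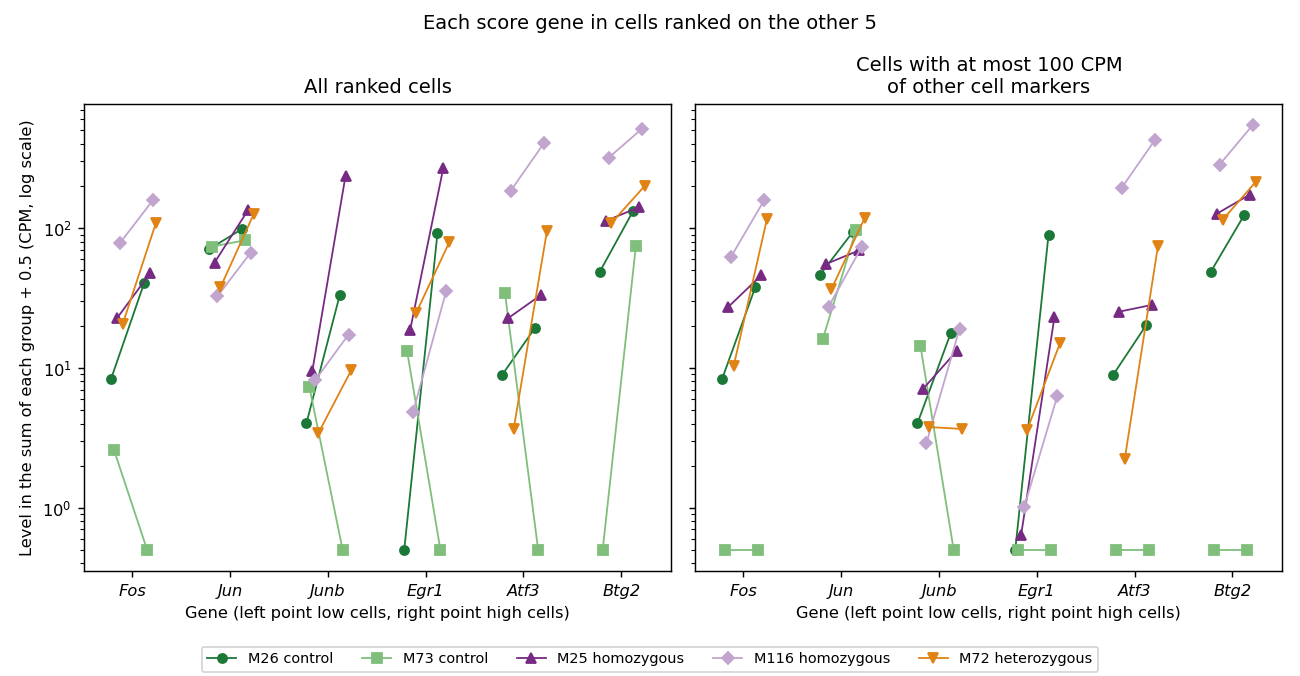
Level of each score gene (log axis, 0.5 CPM added) in the low cells (left point) and high cells (right point) of each mouse, when cells were ranked on the other 5 score genes; on the left for all 219 ranked cells, on the right for the 153 cells with at most 100 CPM of fibroblast, endothelial and immune markers. Lines of 4 mice lead upward for most genes, and those of M73, with 2 cells per group on the left and 1 on the right, often lead down or lie at 0 CPM.

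All other genes were then compared between the ends of the score, with the mouse as a block. None of 9918 genes passed the threshold (0%; edgeR's quasi-likelihood test, smallest adjusted p = 1.00), while an unadjusted p under 0.05 was reached by 284 genes with higher levels in the high cells (2.86%) and 103 with lower levels (1.04%), 387 in all (3.9%). DESeq2 on the same sums called 158 higher (1.59%) and 7 lower (0.0706%). Across the whole table the log2 fold changes had a median of 0.03, or 0.18 without TMM scaling, where the unadjusted split became 322 higher and 30 lower. The cells were ranked within each sample title, so that bright and dim cells of 1 mouse were ranked apart, and the sums per mouse compare cells of the same heart.

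Of 79 other immediate-early genes in 4 lists, 51 were tested and none passed in edgeR. In 43 of them the log2 fold change was positive, with a median of 0.61 beside that table-wide 0.03, and 5 of the 51 reached an unadjusted p under 0.05, as did 3.9% of all genes. That number moved widely with the setting, as did the number over all genes. It was 14 of 52 without M73 (606 of all 10801 genes) and 13 of 51 with equal weight per cell (702 of 9918). With the newer quasi-dispersion of edgeR it was 12 of 51 (820 of 9918). Without M25 it was 2 of 49 (154 of 9559), and without M116 it was 1 of 42 (361 of 9285). A gene with counts mainly in the high cells can pass the filter on low counts, which favours positive values. Klf4 did so, as did Sgk1 and Dusp6, both chosen after their values were seen. Their low cells held 0.63 CPM or less in every mouse but M116. They are among the 5 of 51 and count in the positive values and medians, which are therefore a description only. With no such filter, 59 of 72 were positive with a median of 0.92, beside 0.19 over all genes. Summed over the whole list, the feedback inhibitors were at 1194 against 585 CPM in M26, 1024 against 932 CPM in M73, 1330 against 633 CPM in M25, 951 against 685 CPM in M116 and 1076 against 758 CPM in M72. The sums of the high and low cells did not overlap over mice, but only just: 951 CPM in the high cells of M116 stood above 932 CPM in the 2 low cells of M73. How often sums of other genes do the same was not measured. This list is broader than its name and also holds, for example, the serum-induced kinase Sgk1. The transcription factors outside AP-1 summed to 264 against 159 CPM in M26, 408 against 214 CPM in M73, 436 against 227 CPM in M25, 561 against 394 CPM in M116 and 415 against 185 CPM in M72, higher in the high cells of each mouse with overlapping ranges. Taken in single mice as log2 ratios with 0.5 CPM added, the median of these genes was 0.87 in M26, 0 in M73, 0.97 in M25, 0.48 in M116 and 0.93 in M72. By list, the transcription factors outside AP-1 were positive in 11 of 13 (median 1.10), the feedback inhibitors in 26 of 28 (median 0.64), the AP-1 family in 4 of 5 (median 0.04) and the secreted factors in 2 of 5 (median -0.17). The AP-1 median was 0.20 without TMM scaling and 0.35 with equal weight per cell, where 3 of 5 were positive. Summed over the list, the AP-1 genes outside the score were at 67.2 against 51.8 CPM in M26, 75.0 against 12.4 CPM in M73, 77.1 against 43.0 CPM in M25, 144 against 81.3 CPM in M116 and 94.8 against 63.4 CPM in M72, higher in the high cells of each mouse with overlapping ranges. The secreted factors summed to higher levels in the high cells of 4 mice, from 174 against 125 CPM in M116 to 235 against 84.4 CPM in M26, and to 52.4 against 195 CPM in M73, so that their sums and the median of their fold changes differed in sign. With equal weight per cell, on the log2(CPM + 1) scale, the transcription factors outside AP-1 were positive in 9 of 13 (median 0.36) and the secreted factors had a median of 0.09, beside a median of 0.17 over all genes, of which 6272 of 9918 were positive. Ier5, an immediate-early nuclear regulator chosen after its values were seen, was at 50.9 against 19.1 CPM in M26, 28.0 against 21.5 CPM in M73, 51.9 against 27.6 CPM in M25, 50.1 against 24.998 CPM in M116 and 28.2 against 3.02 CPM in M72. It was the 1 gene of the 51 whose ranges over mice did not overlap, as for 50 of all genes with the high cells above (0.504%), while 12 of all genes (0.121%) did not overlap with the high cells below.

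Ier2, an immediate-early nuclear protein, was at 24.9 against 6.86 CPM in M26, 37.1 against 16.5 CPM in M25, 13.7 against 6.54 CPM in M116 and 30.1 against 2.27 CPM in M72, with no count in either group of M73. The high cells were above the low cells in each of these 4 mice, and the log2 fold change was 1.75 ± 0.82 (SE; edgeR, p = 0.0675, adjusted p = 1.00). Dusp1, a phosphatase that switches off MAP kinases, was at 215 against 65.7 CPM in M26, 210 against 220 CPM in M73, 274 against 63.5 CPM in M25, 168 against 115 CPM in M116 and 165 against 110 CPM in M72. Its log2 fold change of 0.84 ± 0.34 (SE; edgeR) had an unadjusted p of 0.0389 and an adjusted p of 1.00. The middle cells of M116, M72 and M73 held 104, 79.6 and 118 CPM of Dusp1, below both groups, so that in these mice its level did not rank with the score. Gadd45b, a stress-inducible regulator of growth arrest, was higher in the high cells of all 5 mice, as were 428 of all genes (4.32%), from 12.8 against 1.36 CPM in M116 to 55.1 against 39.6 CPM in M73, and its log2 fold change of 1.12 was 0.67 without M116.

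Nr4a1, an orphan nuclear receptor, was at 36.4 against 11.9 CPM in M26, 264 against 13.6 CPM in M73, 75.7 against 99.7 CPM in M25, 316 against 206 CPM in M116 and 169 against 132 CPM in M72. It was lower in the high cells of M25, and its log2 fold change was 0.98 ± 0.64 (SE; edgeR, adjusted p = 1.00), or 0.37 without M73. Klf6 and Zfp36 (which destabilises AU-rich mRNAs) had log2 fold changes of 1.08 and 0.33, with SEs of 1.76 and 1.19, and without M26 Klf6 was at 0.00. Myc was at 5.40 against 0 CPM in M26, 8.62 against 1.58 CPM in M25, 4.57 against 5.65 CPM in M116 and 0.11 against 0 CPM in M72. It had no count in either group of M73. With few or no counts in the low cells of most mice, the fitted fold change of Myc is not given. Zfp36 was lower in the high cells of M73 alone, and its value was 1.07 without M73 and turned to -0.10 without M25, to -0.07 without M72, to -0.10 with equal weight per cell and to -0.21 without the mouse block. Jund, the constitutive Jun subunit, had 0.58 ± 0.66 (SE). Fosb, the closest relative of Fos, did not pass the filter on low counts: it had counts in both groups of M116, at 5.08 and 3.19 CPM, in the high cells of M25 at 0.32 CPM, and none in M26, M72 and M73. Klf4, a Krüppel-like factor that endothelial cells also express, was at 3.50 against 0 CPM in M26, 6.93 against 0.18 CPM in M25, 22.4 against 15.8 CPM in M116 and 34.8 against 0.63 CPM in M72, with no count in either group of M73. With few or no counts in the low cells of 4 mice it passed the filter on low counts mainly through the high cells, so its fitted fold change is not given.

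Markers of other cell types were also unevenly spread. Most endothelial and fibroblast markers had few or no counts in the low cells of several mice and passed the filter on low counts through the high cells, so their fitted fold changes are not counted here and levels summed over each whole list are given. No listed marker passed in edgeR. DESeq2 called 6 of 6 tested fibroblast, 6 of 9 endothelial and 3 of 6 mural markers higher, beside 158 of all 9918 genes (1.59%). Its calls came under the same filter and are therefore not taken as a test of these markers. No marker of the endothelial and fibroblast lists was at 0 over either group, and of the immune list, none of which could be tested, Adgre1 was at 0 in the low cells. The summed endothelial markers were at 722 against 0.56 CPM in M26, 390 against 11.3 CPM in M73, 738 against 36.1 CPM in M25, 302 against 265 CPM in M116 and 779 against 1.26 CPM in M72. The high cells were above the low cells in all 5 mice and, over all of them, their lowest sum was above the highest of the low cells, but in M116 the sums were close. The summed fibroblast markers ranged from 0.90 CPM in M73 to 3886 CPM in M25 in the high cells, and from 0 to 63.9 CPM in the low cells. Without the 2 wells apart the high cells of M25 held 490 CPM, close to the 422 CPM of M26 and the 454 CPM of M72. The immune markers were higher in the high cells of M25 (142 against 0 CPM), M116 (66.9 against 3.00 CPM) and M26 (5.72 against 0 CPM), lower in those of M72 (4.59 against 71.2 CPM) and at 0 in M73. The mural markers had no common direction, with lower sums in the high cells of M26, M73 and M116, at 1205 against 1336, 516 against 642 and 1789 against 1964 CPM, and higher sums in those of M25 and M72, at 1290 against 864 and 1364 against 993 CPM. Fabp4, a fatty acid carrier of capillary endothelium, was at 497 against 0.37 CPM in M26 and 167 against 88.1 CPM in M116, and the VEGF receptor gene Kdr at 57.8 against 0 CPM and 20.1 against 23.8 CPM in the same mice. Sgk1, a serum-induced kinase chosen after its values were seen and the 1 immediate-early gene of the 51 called by DESeq2, had no count in the low cells of M26, M73 and M72 and counts in 1 of 6, 1 of 2 and 5 of 16 high cells there.

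Without the 2 wells apart, none of 9935 genes passed in edgeR (365 at an unadjusted p under 0.05), and the other immediate-early genes were positive in 42 of 51 with a median of 0.53 and 4 at that p. The signal of the other cell types lay in a minority of wells. Fibroblast, endothelial and immune markers together exceeded 100 CPM in 28 of 70 high cells, 25 of 79 middle cells and 13 of 70 low cells, and 500 CPM in 25, 16 and 8. At the 100 CPM limit the counts were 12 and 9 of 34 in M116, 8 and 2 of 12 in M25, 1 and 0 of 6 in M26, 6 and 2 of 16 in M72, and 1 and 0 of 2 in M73, high before low. Apart from the well described above, these wells held more than 20000 CPM of CM markers beside those of the other types; how the second kind of RNA came into them was not tested.

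**Figure D3:**
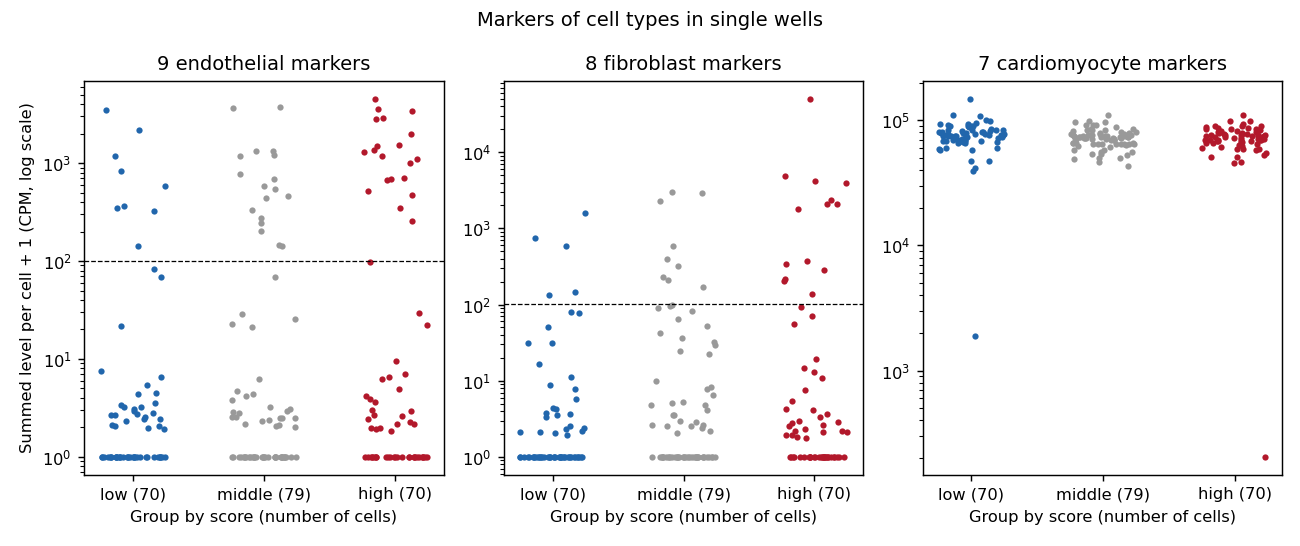
Summed endothelial, fibroblast and CM markers per well (log axis, 1 CPM added) by group of the score; dashed lines mark 100 CPM. Wells above the lines are found in all groups and most often among the high cells, while CM markers lie near 73551 CPM in every group except for 2 wells.

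Ranking was repeated without the 66 wells above 100 CPM, in 153 cells with 49 at each end, of which 1 at each end came from M73. This alternative was added after the data were seen. No gene of 8648 passed (edgeR), and an unadjusted p under 0.05 was reached by 58 higher (0.671%) and 40 lower genes (0.463%), 98 in all (1.13%). The other immediate-early genes kept a positive median, 0.38 beside 0.01 over all genes, with positive values in 28 of 38, but only 1 of the 38 had an unadjusted p under 0.05. The transcription factors outside AP-1 were positive in 5 of 9 (median 0.73) and the feedback inhibitors in 18 of 21 (median 0.47), and the AP-1 family in 3 of 4 (median 0.36). Ier2, Dusp1, Nr4a1 and Gadd45b had log2 fold changes of 1.52, 0.64, 0.73 and 1.10, Klf4 and Sgk1 no longer passed the filter on low counts, and Klf2, chosen after its value was seen, had -1.54. Each score gene was also ranked without itself in these cells. Fos had 1.91 ± 0.68, Atf3 1.64 ± 0.89, Jun 1.38 ± 0.50, Btg2 0.88 ± 0.37 and Junb 0.77 ± 1.20 on the log2 scale (SE; edgeR, adjusted p of 1.00 for each). Egr1 was at 88.7 against 0 CPM in M26, 22.5 against 0.14 CPM in M25, 5.79 against 0.51 CPM in M116 and 14.7 against 3.08 CPM in M72. With few or no counts in the low cells it passed the filter mainly through the high cells, so its fitted fold change is not given. Jun was higher in 5 of 5 mice, Junb in 3, and the other 4 genes in 4, with M73 at 0 CPM in both groups for these 4.

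Contraction genes had small negative values when all wells were used. All 17 had negative log2 fold changes between groups, with a median of -0.24, and 9 had an unadjusted edgeR p under 0.05. Their sum was lower in the high cells of M26, M73, M25 and M72 but higher in those of M116, at 116779 against 115872 CPM. Myl3, the essential ventricular myosin light chain, was at 10940 against 12465 CPM in M26, 8125 against 11481 CPM in M73, 11171 against 13197 CPM in M25, 10797 against 10958 CPM in M116 and 10256 against 11539 CPM in M72. It was lower in the high cells of all 5 mice (log2 fold change -0.36 ± 0.08, SE; edgeR, p = 0.00242, adjusted p = 1.00), a direction that 182 of all genes shared (1.84%), and Myl2, the regulatory chain, had -0.27. Without the 66 wells the median of the 17 genes was 0.01, and Myl3 and Myl2 had -0.06 and 0.03. Without TMM scaling 16 of the 17 were negative, with a median of -0.10 and 5 at an unadjusted p under 0.05. Fatty acid oxidation genes had a median of -0.36, negative in 16 of 18 with 4 at an unadjusted edgeR p under 0.05. Their sum was lower in the high cells of M26, M73 and M25. It was higher in those of M116, at 16400 against 16376 CPM, and of M72, at 12615 against 12012 CPM. Without TMM scaling the median was -0.22, with 13 negative and 0 at that p, and without the 66 wells it was -0.19, with Etfa, a subunit of the electron carrier from acyl-CoA dehydrogenases, at -0.58 and -0.50.

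Acta1, the skeletal alpha-actin that CMs raise under load, had lower levels in the high cells of most mice. It was at 181 against 492 CPM in M26, 142 against 361 CPM in M25, 81.2 against 666 CPM in M116 and 16.9 against 38.3 CPM in M72, with only 5 counts against 1 in M73. The high cells were lower in 4 of 5 mice, with a log2 fold change of -1.58 ± 0.48 (SE; edgeR, p = 0.0104, adjusted p = 1.00), and without the 66 wells it was -2.31 ± 0.66. The middle cells lay above both groups in M72, at 110 CPM, and below both in M25, at 126 CPM. The 10 load response genes as a group had 6 negative and 4 positive values, and Csrp3, a Z-disc mechanosensor, had -0.31, against -0.02 without the 66 wells.

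Heat shock genes had a median of -0.25, with 4 of 15 positive (6 without TMM scaling), and -0.03 without the 66 wells. Hspb1, a small heat shock protein, had 0.36 ± 0.19 and endogenous Bag3, a co-chaperone that binds small heat shock proteins, -0.53 ± 0.22 (SE; edgeR, adjusted p = 1.00 for each), and Bag3 had -0.12 without the 66 wells. The 5 tested genes of the integrated stress response had positive values, with a median of 0.39, but 4 of 5 with equal weight per cell, and the values of both genes named here turned without M73. Atf4, its central factor, had 0.37 ± 0.47 (SE), was lower in the high cells of M26 and M25, and came to -0.10 without M73. The proapoptotic Ddit3 had 0.51 ± 0.77 (SE), was lower in the high cells of M25, and came to -0.06 without M73 and 0.01 without the 66 wells. Kinases and factors upstream of the immediate-early genes were split 9 positive to 8 negative, with a median of 0.16, and 11 to 6 both without TMM scaling and with equal weight per cell. Of this list Map2k2 and Mapkapk2, kinases of the MAP kinase cascades, had -0.69 and -0.40, and Mapkapk2 turned to 0.01 without the 66 wells. The antioxidant genes had no stable direction, with a median of -0.12 that was 0.02 both without TMM scaling and without the 66 wells and 0.13 with equal weight per cell, and with Mt1, a metallothionein, at -0.22 and Sod2, the mitochondrial superoxide dismutase, at -0.18. The transgene has 2 features in the count table. BAG-eGFP was at 148 against 165 CPM in M116, 113 against 123 CPM in M25 and 156 against 115 CPM in M72, so that high cells held less in 2 transgenic mice and more in the heterozygous one. hBAG, the human BAG3 feature, was higher in the high cells of all 3, at 183 against 152 CPM in M116, 215 against 148 CPM in M25 and 195 against 116.03 CPM in M72. Over the 5 mice, controls included, the log2 fold change of hBAG was -0.03 ± 0.45 (SE; edgeR, adjusted p = 1.00). The controls held almost no reads of either feature. With Bag3 added the features summed to 193.2 against 270.7 CPM in M26 and 121.1 against 250.1 CPM in M73. Bag3 alone was at 192.9 against 269.9 CPM and 121.1 against 247.8 CPM there.

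**Figure D4:**
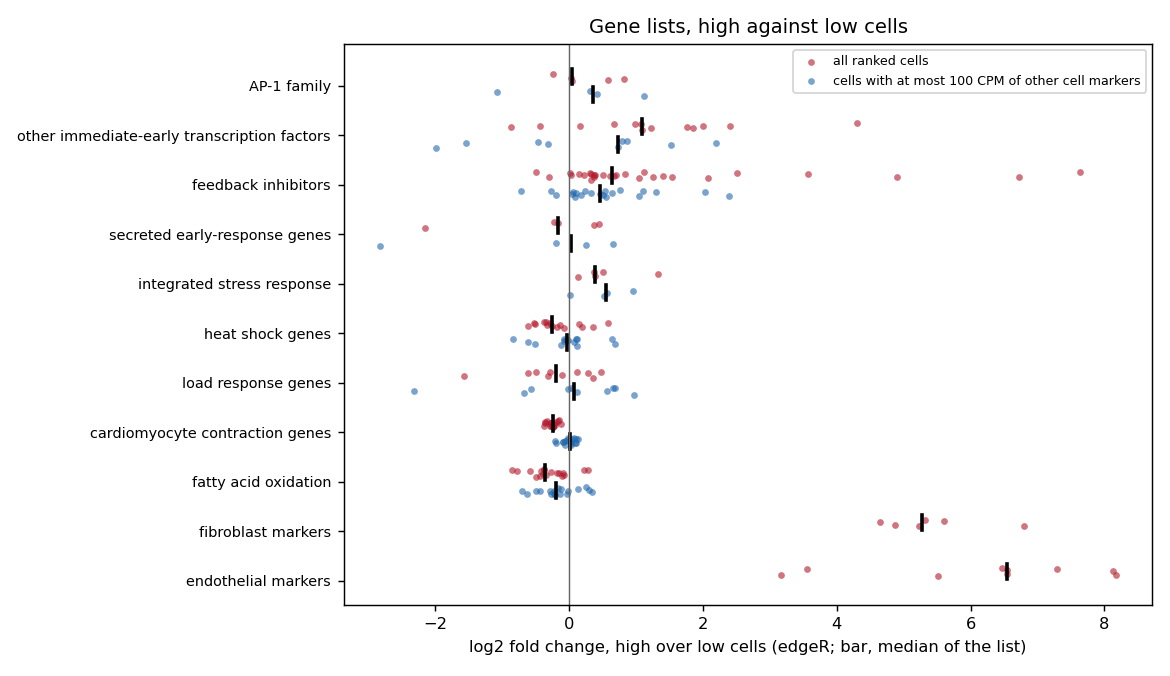
Log2 fold changes of the tested genes of 11 lists between the high and low cells (points; black bars, list medians), in red for all ranked cells and in blue for the cells with at most 100 CPM of other cell markers. Endothelial and fibroblast markers lie far to the right in red, where most passed the filter on low counts through the high cells, and were not tested in blue, and the contraction genes move from a median of -0.24 to 0.01.

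The number of genes detected was compared in the same mice. Thinned to 100000 counts per cell, the median number of genes was higher in the high cells by 546 in M26, 637 in M25, 270 in M116 and 410 in M72, and lower by 211 in M73. The mean difference was 330 ± 333 genes (SD, n = 5; two-sided exact sign-flip permutation test over mice, p = 0.125, where 0.0625 is the smallest possible), and 222 ± 413 genes without the 66 wells. It was 184 with a division of the ranking by 2, where 3 of 5 mice were positive, and 623 with a division by 4. The share of counts on mitochondrially encoded protein genes differed by -2.14 percentage points in M26, -0.37 in M73, -1.42 in M25, 0.36 in M116 and 1.04 in M72, with no common direction (mean -0.51 ± 1.29, SD, n = 5, exact p = 0.375). In the fit of the sums all 10 tested genes of this kind had negative log2 fold changes, with a median of -0.21 and 3 at an unadjusted edgeR p under 0.05 (6 without the 2 wells apart). The median was -0.07 without TMM scaling, with 10 negative, and 0.01 without the 66 wells, with 4 negative.

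Whether the difference between high and low cells depended on genotype or eGFP was tested by interaction terms. Between homozygous and control mice, 0 of 9918 genes passed (0%; edgeR; 407 at an unadjusted p under 0.05, and 49 passed in DESeq2). Between dim and bright cells within the 3 transgenic mice, 0 of 9563 passed (0%; edgeR; 292 unadjusted, and 44 in DESeq2). Without M26, which left M73 with 2 cells per group as the lone control, 1013 genes passed the first test, and 1 each passed without M25 (Fabp4) and without M116 (mt-Rnr2). Without M116 the second test had 14, among them the fibroblast gene Dcn. Without the 2 wells apart both counts stayed at 0. Each genotype had at most 2 mice. The 2 control mice lay on different plates, each beside a transgenic mouse, and M116 lay on plates without a control.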

How the data were processed

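Single CMs of 5 mice were sequenced by SMART-seq2. The authors aligned the reads with STAR to a mouse genome with human BAG3 and eGFP added and deposited the raw counts per gene of 55538 features in 234 cells, without normalization or molecular identifiers; build, annotation and strand setting are not given in the sources used here. Repeated symbols (141) were kept apart. Reads can be split between near-identical genes.

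Members and gene lists were chosen with earlier results of these data known. Cells under 1000 detected genes were left out, and the number of cells in a title class divided by 3, rounded down, was taken from each end of its ranking. The mouse is the replicate: counts were summed per mouse and group, which makes 10 sums, and compared with edgeR 4.0.16 (filterByExpr, TMM, quasi-likelihood test, mouse as block because both groups of a pair come from 1 animal, Benjamini-Hochberg adjustment, threshold 0.05) under R 4.3.3, and with DESeq2 1.42.0. Levels are CPM of the sums before TMM, and fold changes come from the fits. The 6 score genes were counted in scaling but not tested between the score groups. Named genes were the score genes, 10 defining immediate-early genes, and the 2 members of each other list with the smallest p. The other transgene feature, hBAG, was added to these, and others are said to be chosen later. On simulated data with the spread of these sums the fit gave the right sign for most changed genes but called very few of them, so a count of 0 calls does not show that no gene differs.

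Alternatives were library size, no filter, DESeq2, limma with equal weight per cell, sums per title class, no mouse block, a division by 2 or by 4 in place of 3, ranking within plate or on thinned counts, all cells, fewer cells with other markers, edgeR with its newer quasi-dispersion, and each mouse left out.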

Additional observations from a re-analysis of the deposited data

Results flagged for a closer look

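The log2 ratio of high to low (0.5 CPM added) was compared over the 5 mice for 40 quantities, and 1 mouse stood apart from the other 4 in 9 of them; chance flags about 1 in 20. In 6 of the 9 it was mouse M73, whose groups held 2 cells each. Its ratio was -2.38 for Fos and 7.23 for Btg2, each ranked without itself, and 2.11 for Jund, -7.23 for Zfp36, 2.73 for Atf4 and -1.35 for Etfa. Mouse M116 stood apart with 2.84 for Gadd45b, above the others, and with -0.24 for Kdr, below them. Mouse M72 stood apart with 0.18 for Sod2, where the other mice were negative. The part of the small cell number in these values was not tested.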

How the results depend on the processing

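No gene passed between groups under any edgeR or limma setting (0 with no replicate block, so that leaving out the pairing within mice changed no call), and DESeq2 called 165, 1 of them an immediate-early gene outside the score. The interaction counts were 49 (homozygous against control) and 44 (dim against bright) with DESeq2, and ranged from 0 to 1013 and from 0 to 14 when each mouse was left out. The median of the other immediate-early genes stayed within the spread over mice under all settings, from 0.48 to 0.66 without each mouse. Atf3 ranked without itself ranged from -0.053 to 1.60 without each mouse, and the mitochondrial share differed by 0.12 percentage points with a division by 2. Single genes changed sign as follows: Klf6 to -0.25 and Zfp36 to -0.21 without the block, Zfp36 to -0.10, Sod2 to 0.13 and BAG-eGFP to 0.43 with equal weight per cell, BAG-eGFP to 0.28 with sums per title class, Mapkapk2 to 0.012 and Myl2 to 0.027 without the 66 wells, and, without each mouse, Zfp36 to between -0.10 and 1.07, Atf4 to between -0.10 and 0.56 and Ddit3 to between -0.058 and 1.08. Of the list of 3 that holds BAG-eGFP, hBAG and Bag3, 0 were positive in the main fit. Without TMM scaling 1 was positive, and with equal weight per cell 2 were. A limit of 500 CPM that also counted mural markers, which include Acta2, left 24 cells in 4 mice. There Atf4 had -0.20 and BAG-eGFP 1.495. Without each mouse Nr4a1 ranged from 0.37 to 1.45, Gadd45b from 0.67 to 1.31, Junb from 0.93 to 2.52, Egr1 from 1.75 to 3.58 and Btg2 from 0.68 to 1.67. The cause of these changes was not tested. An unadjusted p under 0.05 was reached by 820 genes with the newer quasi-dispersion of edgeR and 702 with equal weight per cell, against 387. Groups of 2 cells in M73 and 5 mice in all limit what these tests can show.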

Other observations

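The 15 wells with fewer than 1000 genes, which entered no comparison, held 487 to 257487 counts, with a median of 1174, and in 11 of them no score gene had a count. Their CM markers had a median of 67568 CPM, near that of the ranked cells. The exception in depth was a well of the bright class of mouse M25 with 257487 counts on 938 genes, whose CM markers summed to 4610 CPM and whose score was 0. With the 2 wells described in the report it makes 3 wells of that class with few CM transcripts. Of the ranked cells 6 held fewer than 100000 counts, 2 of them among the high cells, where 1 count weighs most in the score, and 1 among the low cells.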
